A study of Rattus norvegicus with 45 samples.

Results

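The transcripts of 8 genes that load, coat, break down or export fat were followed in rat liver: Apoa4, Plin2, Cd36, Angptl4, G0s2, Lpin1, Mttp and Cidea. They were picked from 14217 genes with a probe set of their own on the array, by matching the platform's gene symbols, and 10 probe sets carried 1 of these symbols. The genes were selected on earlier results of these same arrays, and which measured values weighed in the choice is not recorded. Their values are therefore a description of these arrays, and the adjusted p-values, which come from a fit over every probe set, are no independent evidence for a response of these genes.

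Liver RNA from adult Sprague-Dawley males, 10 weeks of age, was hybridised to Affymetrix Rat Genome 230 2.0 arrays. There were 45 arrays in 9 groups of 5: control, myclobutanil and triadimefon, each at 6 h, 24 h and 14 days of dosing by gavage. The daily dose was 225 mg/kg for myclobutanil and 175 mg/kg for triadimefon. Both compounds are conazole fungicides that carry a triazole ring, made to block the fungal sterol demethylase. The doses differ between the compounds and are stated for the series rather than for each sample, and what the controls received is not named. The titles number 5 arrays in every group, whereas the series text speaks of 15 livers and the labelling protocol of 3 rats per group. If arrays share animals, the p-values measure only the spread between arrays.

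The deposited values are scores of a log type whose base is not stated, centred near 0 on each array (medians -0.012 to 0.033). A difference of 1 score unit would be 2-fold if the base is 2 and 2.72-fold if it is natural. Scores can be compared between arrays for one probe set but not between probe sets. The hepatocyte markers measured were high on every array (mean of 10 markers 3.43 to 4.49), and of 8 adipocyte markers Adipoq, Plin1, Lep and Fabp4 had group means below 0 in all 9 groups, Pparg -0.15 to 0.02, and Cidec (1 to 1.27), Lipe (0.60 to 0.73) and Cfd (0.17 to 0.59) means above 0. In bulk liver, fewer cells of a type and less RNA per cell cannot be told apart. The array of triadimefon 24 h replicate 2 stood apart. The mean score of 8 pancreatic acinar markers was 1.51 on it and -0.06 to 0.08 on the other 44 arrays. Calls of the 8 genes at 24 h of triadimefon, and in its change of effect to 14 days, are also given without it. The other gene lists were not refitted without that array.

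Hepatocytes store triglyceride in droplets and export it in very low density lipoprotein. Perilipin 2, the product of Plin2, coats the droplet, G0s2 inhibits the droplet lipase ATGL, Cidea promotes droplet growth by fusion, and Lpin1 makes the diacylglycerol from which triglyceride is built. Mttp loads lipid onto apolipoprotein B, Apoa4 is an apolipoprotein carried on triglyceride-rich particles, Cd36 brings fatty acids into cells, and Angptl4 is a secreted inhibitor of lipoprotein lipase. In liver, transcripts of several of these genes are known to respond to fasting and to the fatty acid receptor PPAR-alpha.

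After 14 days of triadimefon, Apoa4, Angptl4, Plin2 and G0s2 were lower than in the controls of that time, and Cd36 and Cidea were higher. These 6 of the 8 genes passed the threshold (limma, Benjamini-Hochberg adjusted p under 0.05 over 31042 probe sets), 2 higher and 4 lower. Of all probe sets, 6.69% passed in that comparison, 3.89% higher and 2.8% lower. The median difference was -0.335 score units over the 8 genes and -0.006 over all probe sets. In the other 5 comparisons with controls, none of the 8 genes passed on its probe set of highest mean, which stands for the gene here.

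**Figure D1:**
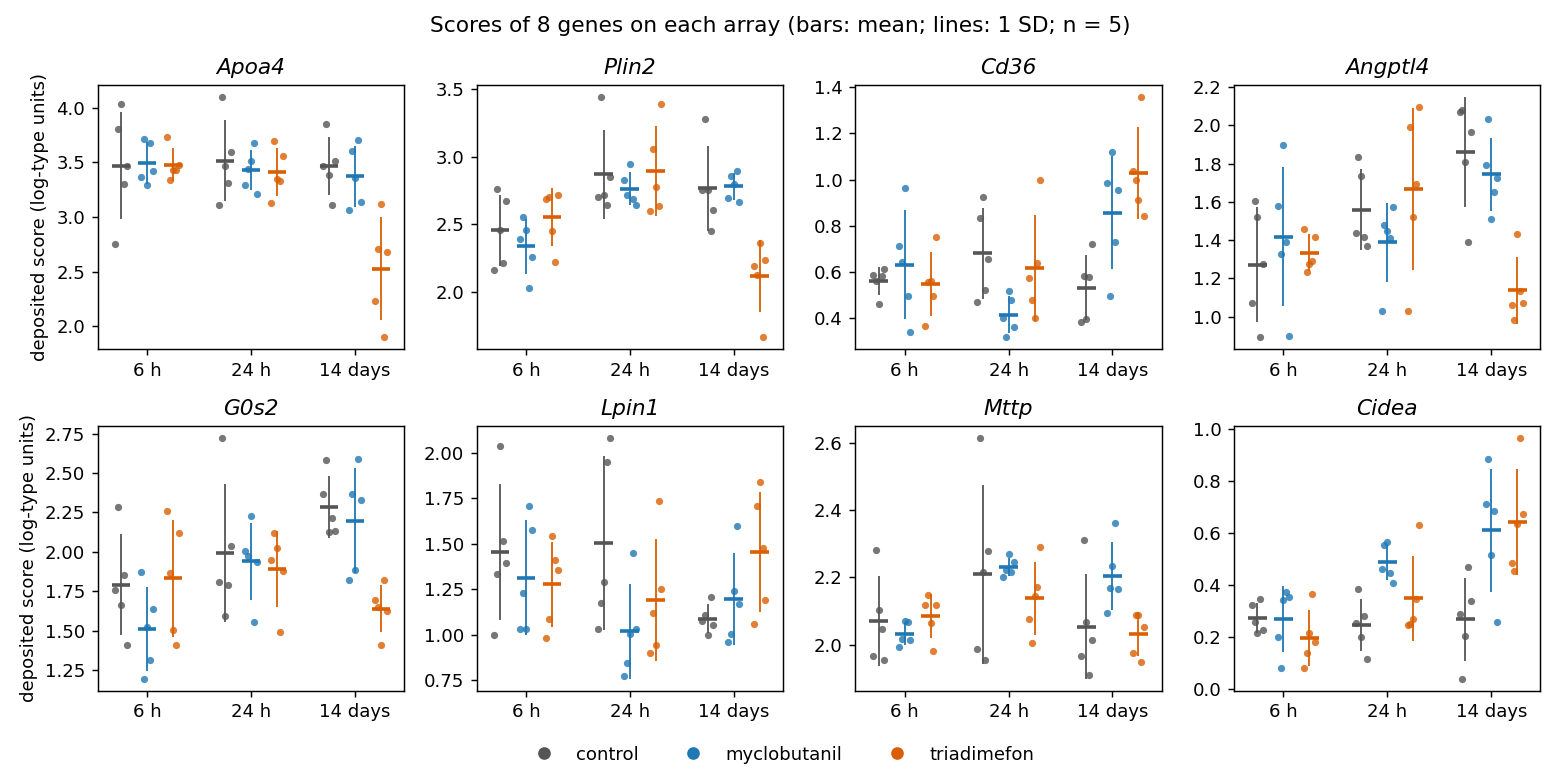
Each point is the deposited score (log-type units, vertical axis) of 1 array for the probe set of highest mean of each gene; horizontal bars are group means and vertical lines 1 SD (n = 5), by time. At 14 days the triadimefon means of Apoa4 (2.53), Plin2 (2.12), Angptl4 (1.14) and G0s2 (1.64) lie below the control means (3.47, 2.76, 1.86 and 2.28), and those of Cd36 (1.03) and Cidea (0.64) lie above (0.53 and 0.27).

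The start regions of the 4 genes that fell and of Cd36, which rose, are printed because these transcripts moved within 1 comparison, in opposite directions. Each holds 250 bases before and 50 bases after a start listed by RefSeq (assembly GRCr8), read 5′ to 3′ on the strand of the gene, and capitals mark matches on either strand to the motifs named in the next paragraph. Apoa4 is on the plus strand at chr8:55435529-55435828, Plin2 on the minus strand at chr5:106228969-106229268, Angptl4 on the minus strand at chr7:15258632-15258931, G0s2 on the minus strand at chr13:107335899-107336198 and Cd36 on the plus strand at chr4:18246332-18246631. For Apoa4 and G0s2 the start is the outer end of the annotated gene, whereas for Plin2, Angptl4 and Cd36 it lies inside the annotated gene. Plin2 has a further entry at chr5:106228488-106228787, which held none of the motifs.
Apoa4: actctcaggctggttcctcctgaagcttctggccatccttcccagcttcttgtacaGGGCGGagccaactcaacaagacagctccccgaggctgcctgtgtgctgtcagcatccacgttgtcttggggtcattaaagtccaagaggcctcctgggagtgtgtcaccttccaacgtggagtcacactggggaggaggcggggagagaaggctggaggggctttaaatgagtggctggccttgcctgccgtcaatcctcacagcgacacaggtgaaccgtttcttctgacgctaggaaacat
Plin2: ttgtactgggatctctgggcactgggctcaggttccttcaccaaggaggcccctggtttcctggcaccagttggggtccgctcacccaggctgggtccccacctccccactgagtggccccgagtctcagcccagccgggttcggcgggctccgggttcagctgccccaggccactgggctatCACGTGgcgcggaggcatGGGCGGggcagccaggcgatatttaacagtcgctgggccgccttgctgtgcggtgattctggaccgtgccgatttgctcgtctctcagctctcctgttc
Angptl4: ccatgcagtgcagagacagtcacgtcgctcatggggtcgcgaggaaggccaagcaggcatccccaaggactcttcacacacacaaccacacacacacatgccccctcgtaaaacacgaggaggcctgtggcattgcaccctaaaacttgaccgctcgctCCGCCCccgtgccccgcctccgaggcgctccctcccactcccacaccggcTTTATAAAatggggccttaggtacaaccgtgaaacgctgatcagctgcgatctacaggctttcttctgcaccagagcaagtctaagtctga
G0s2: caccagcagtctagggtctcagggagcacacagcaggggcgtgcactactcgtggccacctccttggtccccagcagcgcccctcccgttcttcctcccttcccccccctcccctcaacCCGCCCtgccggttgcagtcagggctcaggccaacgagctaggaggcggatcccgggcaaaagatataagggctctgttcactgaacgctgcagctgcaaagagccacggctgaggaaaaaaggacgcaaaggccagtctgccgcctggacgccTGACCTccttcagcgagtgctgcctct
Cd36: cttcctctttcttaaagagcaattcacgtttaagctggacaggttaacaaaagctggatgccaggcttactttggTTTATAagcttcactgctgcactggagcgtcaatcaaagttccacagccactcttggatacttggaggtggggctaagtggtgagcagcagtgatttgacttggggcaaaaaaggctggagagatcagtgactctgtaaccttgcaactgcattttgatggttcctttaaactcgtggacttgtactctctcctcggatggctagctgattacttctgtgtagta

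The motifs searched were the GC box GGGCGG, the E-box CACGTG, the TATA box TATAAA and the nuclear receptor half-site AGGTCA. Of 33469 rat start regions of this length, 33.1% held the GC box, 16.2% the half-site, 14.2% the TATA box and 6.42% the E-box. The windows printed for the 4 genes that fell held a GC box, at positions -194 (Apoa4), -49 (Plin2), -91 (Angptl4) and -131 (G0s2), where 1 is the listed start. The printed Plin2 window also held an E-box at -67, G0s2 a half-site at 24, and Angptl4 a pair of overlapping TATA matches at -41 and -39. The Cd36 window held 1 TATA match at -175. Of the other genes, Cidea held 2 overlapping GC boxes, Lpin1 none of the motifs, and Mttp was not among the 7 genes matched. A match is a description of the letters and shows neither binding nor a cause.

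Apoa4 fell the most in score units. Its scores at 14 days of triadimefon were 1.90, 2.23, 2.68, 2.71 and 3.12, against 3.11, 3.39, 3.47, 3.51 and 3.85 in controls. All 5 treated arrays were below the control mean, and the highest treated array lay at the level of the lowest control. The difference was -0.94 ± 0.19 (SE; limma adjusted p = 0.002), the lowest of the 31042 probe sets in this comparison. After quantile normalization it was again -0.94, and the SD of the controls was 0.122 in place of 0.263. The other 8 groups had means between 3.38 and 3.52, and the differences from control at 6 h and 24 h were 0.01 and -0.10 for triadimefon. Those 8 means lay closer together than the SDs of 0.149 to 0.494 within the groups, so their order is not resolved.

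Apoa4 is also a major transcript of enterocytes. On the same arrays the mean of 6 enterocyte markers ranged from -0.15 to 0.25 in the controls and from -0.11 to 0.19 with triadimefon at 14 days. With triadimefon the means were -0.12 for Fabp2, -0.22 for Vil1, -0.13 for Cdx2, -0.52 for Si and 0.01 for Alpi, while Cdh17 was at 1.40 against 0.83 in controls (difference 0.56 ± 0.39, adjusted p = 0.39). Of the 6, Vil1 passed the test, 0.09 score units lower (difference -0.09 ± 0.03, limma adjusted p = 0.043). A part of enterocytes in the Apoa4 result was not tested.

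Plin2 fell on both of its probe sets. On the brighter one the triadimefon scores at 14 days were 1.67, 2.13, 2.20, 2.23 and 2.36 and the control scores 2.45, 2.60, 2.75, 2.75 and 3.27. The groups did not overlap. The difference was -0.65 ± 0.15 (limma adjusted p = 0.0076). On the dimmer one the treated arrays had -0.05, 0.01, 0.01, 0.06 and 0.06 and the controls 0.15, 0.24, 0.24, 0.32 and 0.32, again without overlap. There the difference was -0.23 ± 0.05 (limma adjusted p = 0.0054), from a control mean of 0.25 that leaves little room above the array's centre.

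At earlier times the Plin2 probe sets differed in which comparisons passed. Whether their differences themselves differ was not tested. On the dimmer one the 24 h scores were lower than control with myclobutanil (difference -0.23 ± 0.05, limma adjusted p = 0.004) and with triadimefon (-0.17 ± 0.05, limma adjusted p = 0.036). The brighter one gave -0.11 (adjusted p = 0.75) and 0.02 (adjusted p = 0.95). Between controls at 24 h and 6 h the dimmer probe set rose by 0.29 ± 0.05 (limma adjusted p = 0.00081). The brighter one also lay higher, by 0.41 ± 0.15, and did not pass (adjusted p = 0.15). Control levels at 24 h on the dimmer probe set, 0.32 to 0.62, were all above the 0.11 to 0.22 of the 6 h controls. Which Plin2 transcripts the probe sets read is not given in the sources used here.

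**Figure D2:**
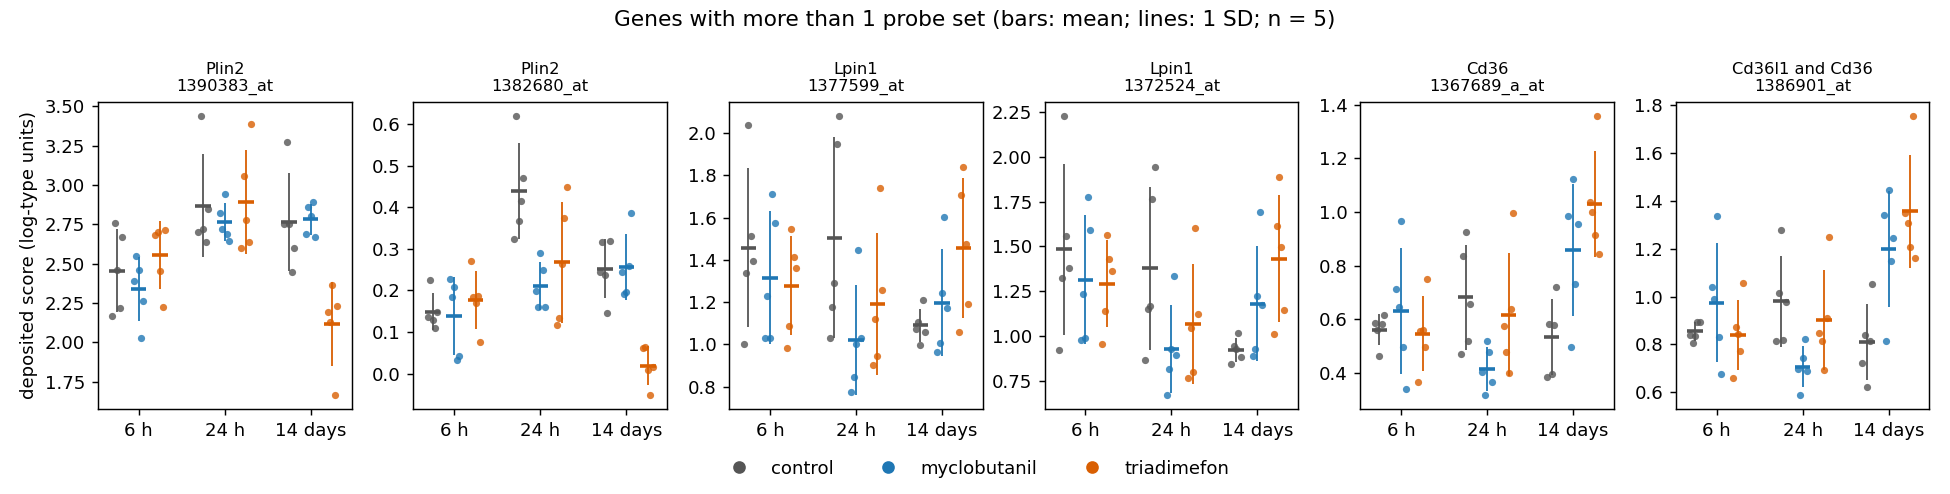
Scores of each array (log-type units, vertical axis, its own range in each panel) for both probe sets of Plin2, both of Lpin1, the Cd36 probe set and the probe set listed with Cd36l1 and Cd36; bars are means and lines 1 SD (n = 5). Both Plin2 probe sets are low with triadimefon at 14 days (means 2.12 and 0.02), and the 24 h control mean is high on the dimmer Plin2 probe set (0.44, against 0.15 at 6 h).

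Angptl4 fell with triadimefon at 14 days from a control level that was its highest group mean. The treated scores were 0.98, 1.06, 1.07, 1.13 and 1.43 and the control scores 1.39, 1.81, 1.96, 2.07 and 2.08. The groups overlapped by 1 array on each side. The difference was -0.73 ± 0.16 (limma adjusted p = 0.005), and 4 probe sets had a lower one. Group means in controls were 1.27 ± 0.299 (SD) at 6 h, 1.56 ± 0.212 at 24 h and 1.86 ± 0.287 at 14 days. Neither step passed the test (0.29, adjusted p = 0.46, and 0.30, adjusted p = 0.29).

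G0s2 also fell at 14 days of triadimefon. Treated scores were 1.41, 1.63, 1.65, 1.69 and 1.82 and control scores 2.12, 2.13, 2.22, 2.37 and 2.59. The groups were apart by 0.30 score units, more than the SD of 0.15 or 0.195 within them. The difference was -0.65 ± 0.18 (limma adjusted p = 0.024). Without control 14 days replicate 2 it was -0.57 (adjusted p = 0.085) and without triadimefon 14 days replicate 3 it was -0.59 (adjusted p = 0.058), so the call rests on those arrays. The treated mean of 1.64 was near the 6 h means of 1.51 to 1.83, whose SDs were 0.267 to 0.370.

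Cd36 rose with triadimefon at 14 days. Treated scores were 0.84, 0.91, 1, 1.04 and 1.36 and control scores 0.39, 0.40, 0.58, 0.58 and 0.72, with no overlap. The difference was 0.50 ± 0.11 (limma adjusted p = 0.0046). A probe set listed with both Cd36l1 and Cd36, which was not counted as a Cd36 probe set, gave 0.55 ± 0.11 (adjusted p = 0.0023), with treated scores of 1.16 to 1.76 and control scores of 0.62 to 1.05. Endothelial cells and macrophages also carry CD36. The mean of 6 endothelial markers was 0.83 to 0.94 in the 14 day controls and 0.95 to 1 with triadimefon, and of the 6 Pecam1 rose (0.15 ± 0.03, limma adjusted p = 0.0044). None of 10 macrophage markers passed (mean 1.18 to 1.45 against 1.21 to 1.37), and their part and that of the endothelial markers in the Cd36 result was not tested.

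Cidea rose as well. Its triadimefon scores at 14 days were 0.45, 0.49, 0.63, 0.68 and 0.97 and its control scores 0.04, 0.20, 0.29, 0.34 and 0.47. The lowest treated array lay just under the highest control, and the other 4 were above all controls. The difference was 0.37 ± 0.09 (limma adjusted p = 0.0086). Adipose tissue is rich in Cidea, and of 8 adipocyte markers 1 passed at 14 days of triadimefon, Lipe, which was lower (-0.13 ± 0.03, limma adjusted p = 0.0079). The mean of the 8 was 0.12 to 0.22 in controls and 0.12 to 0.18 with triadimefon. A part of adipose tissue in the Cidea result was not tested.

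Lpin1 and Mttp did not pass at 14 days. Lpin1 scores with triadimefon were 1.06, 1.19, 1.48, 1.71 and 1.84, against 1 to 1.21 in controls. The treated arrays were spread widely (SD 0.330 against 0.078), and the difference was 0.37 ± 0.19 (limma adjusted p = 0.23). The other Lpin1 probe set gave 0.51 ± 0.20 (adjusted p = 0.12). Mttp differed by -0.02 (95% interval -0.18 to 0.13), and its 9 group means lay between 2.03 and 2.23.

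**Figure D3:**
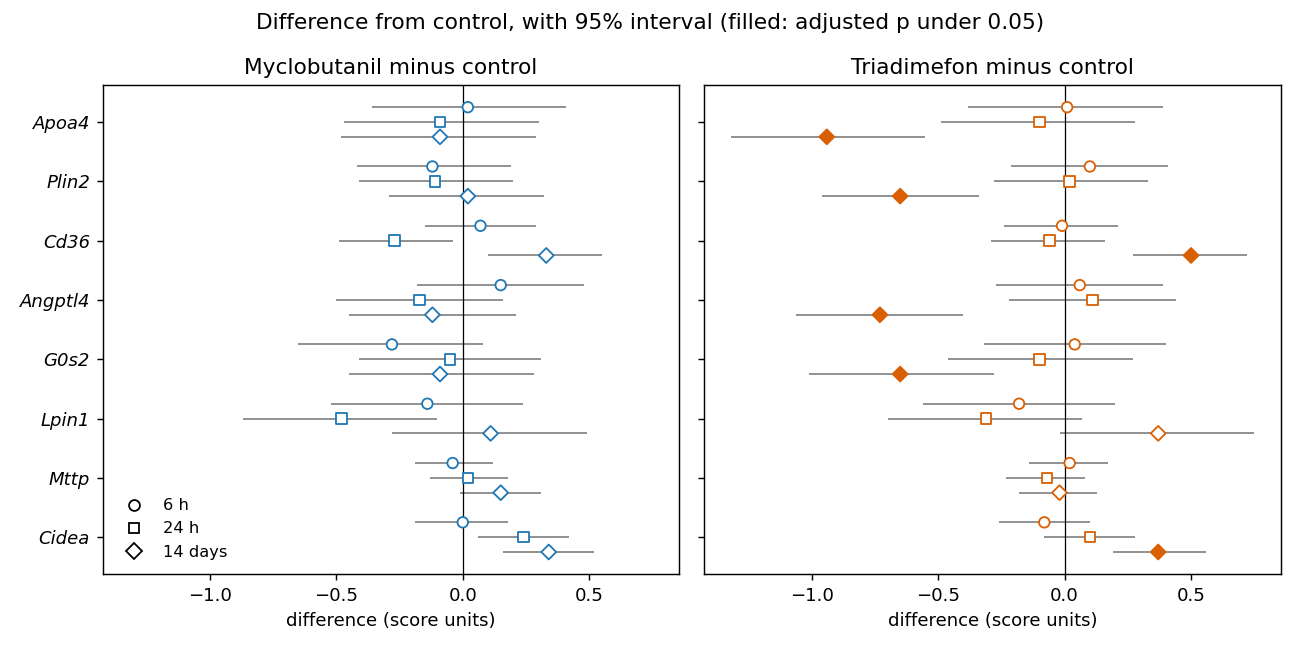
Differences from the controls of the same time in score units (horizontal axis) with 95% intervals for the 8 genes, with myclobutanil on the left and triadimefon on the right; marker shapes give the time and filled markers adjusted p under 0.05. The filled markers are 6 genes at 14 days of triadimefon, from -0.94 (Apoa4) to 0.50 (Cd36).

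Myclobutanil at 14 days gave no call among the 8 genes, where 0.792% of probe sets passed (4070 at an unadjusted p under 0.05; 0 of the 8 after quantile normalization as well). The genes that fell with triadimefon had differences of -0.09 (Apoa4, 95% interval -0.48 to 0.29), 0.02 (Plin2, -0.29 to 0.32), -0.12 (Angptl4, -0.45 to 0.21) and -0.09 (G0s2, -0.45 to 0.28). Cidea and Cd36, which rose with triadimefon, both lay above the control mean with myclobutanil. Cidea scores with myclobutanil were 0.26, 0.52, 0.68, 0.71 and 0.89, and 4 of the 5 were above every control. Its difference of 0.34 ± 0.09 had a limma adjusted p of 0.051. It passed without control 14 days replicate 4 (0.39, adjusted p = 0.043), myclobutanil 14 days replicate 3 (0.37, adjusted p = 0.048) or myclobutanil 14 days replicate 5 (0.43, adjusted p = 0.005). Cd36 scores were 0.50, 0.73, 0.95, 0.98 and 1.12, overlapping the controls, with a difference of 0.33 ± 0.11 (limma adjusted p = 0.16).

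The compounds were set against each other directly at each time, at their unequal doses. At 14 days Apoa4 and Plin2 were lower with triadimefon than with myclobutanil, 2 of the 8 genes where 0.332% of all probe sets passed. Apoa4 scores with myclobutanil were 3.07, 3.14, 3.36, 3.60 and 3.71, of which the lowest was under the highest triadimefon array. The Apoa4 difference was -0.85 ± 0.19 (limma adjusted p = 0.032). Plin2 scores with myclobutanil were 2.67, 2.69, 2.80, 2.86 and 2.89, all above every triadimefon array by at least 0.31. The Plin2 difference was -0.67 ± 0.15 (limma adjusted p = 0.036), and the dimmer probe set gave -0.24 ± 0.05 (adjusted p = 0.032).

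Both calls are near the threshold. In the 10 repeats that each left out 1 array of the groups compared, at most 2 genes passed and at least 0. Apoa4 did not pass without myclobutanil 14 days replicates 2 (-0.79, adjusted p = 0.096), 3 (-0.85, 0.065) or 4 (-0.77, 0.11), or without triadimefon 14 days replicates 1 (-0.77, 0.095) or 4 (-0.69, 0.17). Plin2 did not pass without myclobutanil 14 days replicates 1 (-0.69, 0.055), 2 (-0.65, 0.09), 3 (-0.66, 0.079) or 4 (-0.64, 0.099), or without triadimefon 14 days replicates 1 (-0.68, 0.054), 2 (-0.67, 0.07), 4 (-0.55, 0.19) or 5 (-0.69, 0.056). The direction was the same in every repeat for both genes. Angptl4 and G0s2 had differences of -0.61 ± 0.16 (limma adjusted p = 0.091) and -0.56 ± 0.18 (adjusted p = 0.18). Cd36 and Cidea differed by 0.17 (95% interval -0.05 to 0.39) and 0.03 (-0.15 to 0.21). Neither passed, and differences of a size within those intervals are not excluded.

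At 24 h no gene of the 8 passed with either compound on its probe set of highest mean. The dimmer Plin2 probe set, given above, passed with both. Many transcripts passed at that time: 8.47% of probe sets with myclobutanil and 7.98% with triadimefon (6800 and 6834 at an unadjusted p under 0.05). After quantile normalization 1 of the 8 passed with myclobutanil, Mttp, at 0.15 (limma adjusted p = 0.049), against 0.02 in the deposited values. Lpin1 scores with myclobutanil were 0.78, 0.85, 1, 1.03 and 1.45, against 1.03, 1.18, 1.29, 1.95 and 2.08 in controls, and all 5 were below the control mean. The difference was -0.48 ± 0.19 (limma adjusted p = 0.11), and -0.60 without control 24 h replicate 1 (adjusted p = 0.043). Cidea scores with myclobutanil, 0.41 to 0.56, were all above the 0.11 to 0.38 of controls. Its difference was 0.24 ± 0.09 (limma adjusted p = 0.088).

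Cd36 scores with myclobutanil at 24 h were 0.32, 0.36, 0.40, 0.48 and 0.52, all below the control mean of 0.68. The difference was -0.27 ± 0.11 (limma adjusted p = 0.13). In the same comparison 9 of 10 macrophage markers fell, with a list mean of 0.94 to 1.17 against 1.23 to 1.73 in controls, and 2 of 6 endothelial markers fell. Their part in the Cd36 values was not tested. With triadimefon at 24 h the Cd36 difference was -0.06 (adjusted p = 0.79) and no macrophage marker passed. Without the array that carries pancreatic transcripts the 24 h triadimefon count was again 0, with differences of -0.17 for Apoa4 and 0.03 for Angptl4.

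At 6 h the 8 genes had no call with myclobutanil (0.38% of probe sets, 2624 at an unadjusted p under 0.05) or triadimefon (0.915%, 3534), nor after quantile normalization. The furthest from 0 was G0s2 with myclobutanil, -0.28 ± 0.18 (limma adjusted p = 0.75). None of the 8 passed between the compounds at 6 h (0.251% of probe sets, 2307 unadjusted) or at 24 h (1.06%, 3340 unadjusted), with 0 after quantile normalization too. Among controls none passed on its probe set of highest mean between 24 h and 6 h (2.78%, 4316 unadjusted). None passed between 14 days and 24 h (0.238%, 6105 unadjusted), and both counts were again 0 after quantile normalization. The dimmer Plin2 probe set rose between 6 h and 24 h (0.29, limma adjusted p = 0.00081). Lpin1 in controls was 1.51 ± 0.476 (SD) at 24 h and 1.09 ± 0.078 at 14 days, a difference of -0.42 ± 0.19 (adjusted p = 0.22).

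Whether an effect changed with time was tested as the difference between the effects at 2 times. For triadimefon at 14 days against 24 h, 4 of the 8 genes passed, where 12.7% of probe sets did. The effect on Angptl4 went from 0.11 to -0.73, a change of -0.83 ± 0.23 (limma adjusted p = 0.015), and that on Cd36 from -0.06 to 0.50, a change of 0.56 ± 0.16 (adjusted p = 0.015). These calls held in each of the 20 repeats without 1 array. The change was -0.83 ± 0.27 for Apoa4 (adjusted p = 0.035) and -0.67 ± 0.22 for Plin2 (adjusted p = 0.034).

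Without the array that carries pancreatic transcripts, Angptl4 (-0.75, limma adjusted p = 0.035) and Cd36 (0.53, adjusted p = 0.032) passed and Apoa4 (-0.76, adjusted p = 0.07) and Plin2 (-0.63, adjusted p = 0.063) did not. Apoa4 also did not pass without control 24 h replicates 1 (-0.73, 0.061) or 3 (-0.82, 0.056), triadimefon 24 h replicate 5 (-0.80, 0.05), control 14 days replicates 2 (-0.74, 0.078) or 5 (-0.82, 0.052), or triadimefon 14 days replicates 1 (-0.76, 0.07) or 4 (-0.68, 0.083). Plin2 also did not pass without control 24 h replicates 3 (-0.63, 0.064) or 4 (-0.61, 0.051), triadimefon 24 h replicate 5 (-0.55, 0.07), control 14 days replicate 2 (-0.54, 0.087) or triadimefon 14 days replicate 4 (-0.56, 0.078). On the dimmer Plin2 probe set the change was -0.06 (adjusted p = 0.6). The change was -0.55 ± 0.25 for G0s2 (adjusted p = 0.14), -0.71 after quantile normalization (adjusted p = 0.03, which makes 5 genes in place of 4) and -0.73 without control 24 h replicate 2 (adjusted p = 0.048). For Lpin1 it was 0.68 ± 0.27 (adjusted p = 0.083), 0.80 without control 24 h replicate 1 (adjusted p = 0.04) and 0.82 without triadimefon 24 h replicate 4 (adjusted p = 0.035).

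For myclobutanil at 14 days against 24 h, 1 of the 8 genes passed and 4.56% of probe sets did. The gene was Cd36, whose effect went from -0.27 to 0.33, a change of 0.59 ± 0.16 (limma adjusted p = 0.022). It did not pass without control 24 h replicate 2 (0.55, adjusted p = 0.057) or control 24 h replicate 3 (0.53, adjusted p = 0.053). The macrophage markers that fell with myclobutanil at 24 h, 9 of 10, did not pass at 14 days, and their part in the Cd36 change was not tested. Between 24 h and 6 h none of the 8 passed for myclobutanil (1.75%, 4047 unadjusted) or triadimefon (3.13%, 5608 unadjusted), nor after quantile normalization.

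Other genes of fat handling were counted by list at 14 days of triadimefon. Over all probe sets 3.89% were higher and 2.8% lower there, and 9.15% passed in either direction after quantile normalization. The list counts are to be read beside these shares. Of 13 other droplet coat and fusion genes 1 rose and 1 fell: Plin3, a coat protein of the perilipin family, rose by 0.39 ± 0.08 (limma adjusted p = 0.0028), and Fitm1 fell by 0.11 (adjusted p = 0.011). Plin3 also rose with myclobutanil at 14 days, 0.38 ± 0.08 (adjusted p = 0.013). Of 8 genes of triglyceride breakdown, Lipe fell by 0.13 and none rose. Of 13 genes of triglyceride synthesis, Agpat4, an acyltransferase, rose by 0.17 ± 0.02 (limma adjusted p = 9.4e-06) and none fell. After quantile normalization 1 of the 13 was higher and 3 lower. Agpat4 (mean -0.08 in controls, 0.10 with triadimefon) and Fitm1 (-0.19 and -0.30) lay near or below the arrays' centre. None of 18 genes of lipoprotein assembly and apolipoproteins passed (3 lower after quantile normalization).

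Of 19 genes of fatty acid and lipoprotein uptake, Lpl, the lipase that Angptl4 inhibits, rose by 0.46 ± 0.08 (limma adjusted p = 0.00025), and Slc27a4 fell by 0.09 (adjusted p = 0.048). After quantile normalization 2 of the 19 were higher and 4 lower. Lpl was also higher with triadimefon than with myclobutanil (0.35 ± 0.08, adjusted p = 0.031). Of 20 lipid regulators, Ppard, a fatty acid receptor, fell by 0.29 ± 0.03 (adjusted p = 2.1e-08), and Mlxipl, which encodes the carbohydrate response factor ChREBP, fell by 0.21 ± 0.05 (adjusted p = 0.017), with 3 lower after quantile normalization. None of 16 genes that respond to fasting and PPAR-alpha passed (median -0.034, 2 lower after quantile normalization), and none of 10 that respond to adrenaline, glucocorticoid or feeding.

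**Figure D4:**
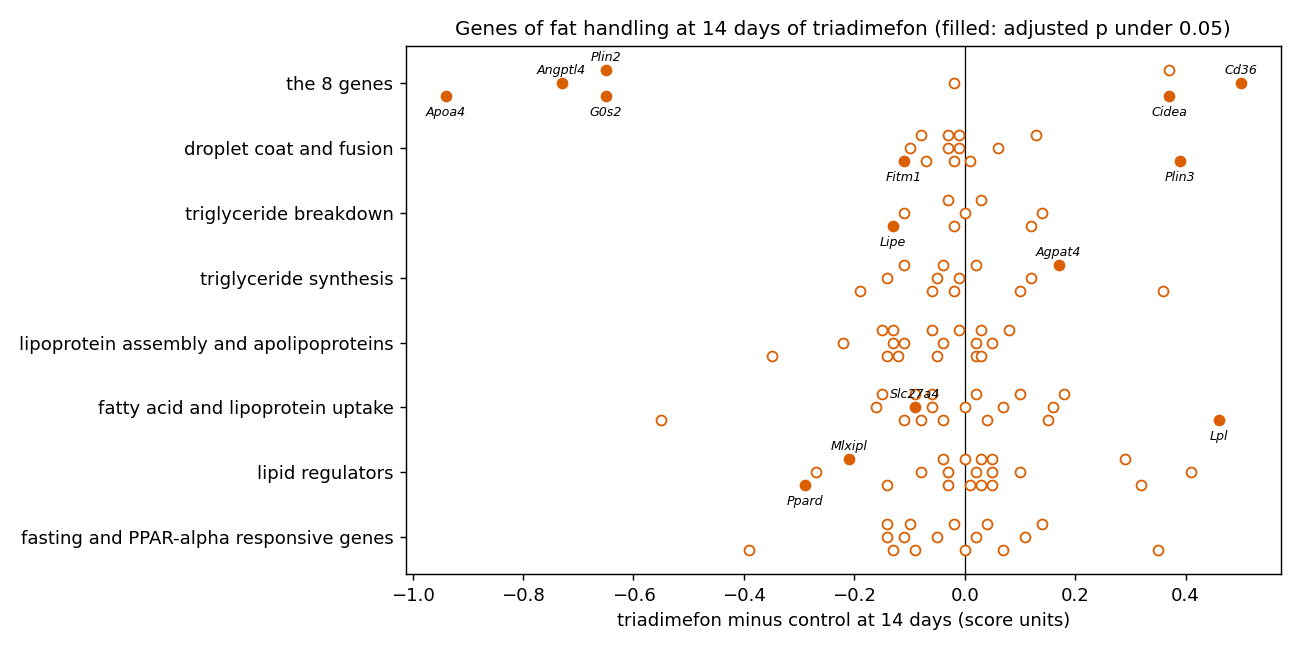
Each circle is 1 gene, placed by its difference between triadimefon and control at 14 days (score units, horizontal axis) within its list (vertical axis; height within a list carries no value); filled circles have adjusted p under 0.05 and are named. Apoa4 (-0.94), Angptl4 (-0.73), Plin2 (-0.65) and G0s2 (-0.65) lie below every other gene drawn. These genes were selected on earlier results of these same arrays, so their place below the lists is a description and no evidence of a larger response. The order is in score units, and scores cannot be compared between probe sets.

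At 24 h, where the 8 genes had no call on their probe sets of highest mean, genes of these lists passed in both directions. Over all probe sets 3.05% were higher and 5.42% lower with myclobutanil, and 2.24% higher and 5.75% lower with triadimefon. Of 13 droplet coat and fusion genes, 1 rose and 2 fell with myclobutanil and 1 rose and 3 fell with triadimefon. Fitm2, which helps droplets bud, rose with both (0.30 ± 0.07 and 0.27 ± 0.07), and Hsd17b13, a droplet-associated enzyme, fell with both (-0.28 ± 0.07 and -0.32 ± 0.07). Cav1 fell with myclobutanil (-0.11), from a control mean of 0.06 to -0.04, near the arrays' centre. Cideb, a relative of Cidea, fell with triadimefon (-0.32 ± 0.08). Of 8 genes of triglyceride breakdown, the esterase Aadac fell with both (-0.50 ± 0.09 and -0.66 ± 0.09) and Mgll rose with myclobutanil (0.19 ± 0.05).

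Of 13 genes of triglyceride synthesis, 1 rose and 2 fell with either compound. Dgat2, which makes triglyceride, fell with myclobutanil (-0.41 ± 0.12, limma adjusted p = 0.02) and triadimefon (-0.44 ± 0.12, adjusted p = 0.013). Agpat2 fell (-0.24 and -0.23). Agpat4 rose (0.16 and 0.18) from a control mean of -0.07, near the arrays' centre. After quantile normalization these counts were 2 and 2 with myclobutanil and 1 and 1 with triadimefon. Of 18 genes of lipoproteins, Apoa5, Pltp and Apoc4 fell with myclobutanil (-0.41, -0.41 and -0.38) and Apobec1 with triadimefon (-0.23). After quantile normalization the lipoprotein counts were 2 higher and 3 lower, and 1 higher and 2 lower. Of 19 uptake genes, Lipc, the hepatic lipase, fell with myclobutanil (-0.39 ± 0.11) and Fabp5, a fatty acid binding protein, with triadimefon (-0.63 ± 0.15).

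Of 20 lipid regulators, Srebf1, a driver of fatty acid synthesis genes, fell with triadimefon (-0.85 ± 0.14, limma adjusted p = 0.00011) and none passed with myclobutanil. Of 16 fasting and PPAR-alpha responsive genes, Crat, Acot2 and Pex11a rose with triadimefon, by 0.42, 0.38 and 0.22, and Cyp4a1 fell with myclobutanil (-0.46 ± 0.13, adjusted p = 0.018). After quantile normalization 7 of the 16 were higher and 0 lower with triadimefon, and 1 higher and 2 lower with myclobutanil. The array means of the 16 genes overlapped: 1.29 to 1.99 with triadimefon (median 1.48) and 1.28 to 1.58 in controls (median 1.40). Whether these calls rest on a single array was not tested. Of 10 genes that respond to adrenaline, glucocorticoid or feeding, Dusp1 fell with myclobutanil (-0.64 ± 0.17) and none passed with triadimefon.

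Genes whose scores ran most like those of a member were sought over the 30 treated arrays, after the control mean of the same time was subtracted. These correlations across arrays share the arrays' scaling and the treatment groups and are descriptions. G0s2 ran closest to Angptl8 (r = 0.899, and 0.895 after quantile normalization). Angptl8 itself differed by -0.55 ± 0.23 at 14 days of triadimefon (limma adjusted p = 0.13). Plin2 ran closest to Fpgs (r = 0.829), which was again first after quantile normalization (0.868). For the others the first gene depended on the scaling. Crbn for Cd36 (r = 0.822) and Synpo2l for Apoa4 (0.786) each ranked 24 after quantile normalization. Ranbp1 for Angptl4 (0.728) ranked 5 and Ctps2 for Cidea (0.796) ranked 3. Synpo2l (mean -0.04 in 14 day controls, -0.11 with triadimefon) and Ranbp1 (-0.05 and -0.13) lay below the arrays' centre. Next for Cidea were Gsta3 (r = 0.792) and Abcc3 (0.786), which ranked 4 and 6 after quantile normalization. Gsta3, a glutathione transferase, and Abcc3, an export pump, rose by 1.55 ± 0.16 and 1.13 ± 0.10 at 14 days of triadimefon (adjusted p = 1.2e-08 and 1.1e-10). Both also rose at 14 days of myclobutanil, by 1.35 ± 0.16 and 0.81 ± 0.10 (limma adjusted p = 8.9e-07 and 1.1e-06).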

How the data were processed

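Processed values of 45 Affymetrix arrays were deposited by the authors as 1 score per probe set and array. The score is of a log type, judged from its range (-0.98 to 5.69) and centring; its base, the summarisation and the annotation build are not given in the sources used here. Of 31099 probe sets, 57 Affymetrix controls were left out. A means model over 9 groups was fitted to all arrays with limma 3.58.1 (lmFit, contrasts.fit, eBayes; R 4.3.3; 36 residual degrees of freedom), with 15 contrasts and Benjamini-Hochberg adjustment over 31042 probe sets, and was tested on simulated data. The probe set with the highest mean score stands for its gene. No probe set was filtered. Precision is limited by 5 arrays per group.

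All members were named. Other lists are given for 14 days of triadimefon and for 24 h, with up to 3 genes named per list and compound, those of largest difference past the threshold. The most alike genes were ranked by correlation per called member. The members and lists were chosen with earlier results of these data known. Gene positions and start regions come from RefSeq (GRCr8). Alternatives are given in the closing section. Marker lists also covered stellate cells (1 of 8 lower at 14 days of triadimefon) and erythroid cells (0 of 4).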

Additional observations from a re-analysis of the deposited data

Results flagged for a closer look

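On 1 array of 5, Plin2 in control 24 h replicate 2 stood at 3.44, where the nearest control was 2.85 and the lowest 2.64. The gap was 0.741 of the group's range, and that array also had the highest 99th percentile of all scores (3.54). Cidea in triadimefon 24 h replicate 5 stood at 0.63, where the nearest array was 0.34 and the lowest 0.25, a gap of 0.747 of the range. Of 99 groups of values screened 2 were singled out, and chance alone would single out about 1 in 20.

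Effects that differed between 14 days and 24 h by the test of the difference were those of triadimefon on Apoa4 (-0.83), Angptl4 (-0.83), Plin2 (-0.67) and Cd36 (0.56), and of myclobutanil on Cd36 (0.59).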

How the results depend on the processing

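Of 120 differences followed (8 genes in 15 comparisons), 13 passed. The count at 14 days of triadimefon stayed within 5 to 6 when 1 array was left out. With myclobutanil at 24 h the count of 0 became 1 after quantile normalization, with a replicate block, with the dimmest probe set of each gene and with the groups compared alone, and it was 0 to 1 without 1 array. At 14 days of myclobutanil it became 1 among probe sets above the median level and with a replicate block, and was 0 to 1 without 1 array. With the dimmest probe set it was 1 for triadimefon at 24 h, where Plin2 turned from 0.02 to -0.17, and 1 for controls at 24 h against 6 h. Between the compounds at 14 days the count of 2 became 0 with arrays of file-name ending 11 alone and with the groups compared alone, and was 0 to 2 without 1 array. For the change of effect from 24 h to 14 days it was 0 to 1 without 1 array with myclobutanil. With triadimefon it was 2 with the groups compared alone, 5 after quantile normalization and 2 to 5 without 1 array.

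Whether the replicate numbers pair the arrays is not settled. Same-numbered arrays of different groups had a mean correlation of deviations of 0.04 over 180 pairs (-0.439 to 0.594), other pairs -0.009. Of the 180 pairs 66 were above 0.1, and 12 of 45 arrays were closest to their own number. The shares to be met without any pairing were not computed, so these counts do not decide the question. A mean near 0 cannot exclude that some arrays share an animal. The replicate block also brought Lpin1 past the threshold with myclobutanil at 24 h (-0.48, limma adjusted p = 0.029) and in the triadimefon change of effect (0.68, adjusted p = 0.026). The file-name ending as a covariate changed no call. The cause of these shifts was not tested.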
